A study of Mus musculus with 8 samples.

Results

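The members are the nuclear-encoded subunits of mitochondrial oxidative phosphorylation, measured on Illumina bead arrays in the medial prefrontal cortex of male mice aged 10 weeks. They were chosen by name as all probes whose platform symbol begins with Nduf, Sdh (a to d), Uqcr, Cox4 to Cox8 or Atp5, or is Cyc1 or Cycs, without the assembly factors named Ndufaf. The rule itself uses names and detection, and no difference between the groups. It gave 126 probes of 81 genes among the 45281 probes of the array. Of these, 109 probes of 75 genes were detected (detection p under 0.05) on 4 or more of the 8 arrays and were tested, among 20531 probes and 11018 named genes tested in all. The IMO group (4 arrays, numbered 1 to 4) came from mice that were immobilized for 2 h and examined 6 days later under basal conditions. The No stress group (4 arrays, numbered 5 to 8) was not immobilized. The labels name no strain, genotype or drug for either group, and RNA came from tissue punches 1 mm wide, so that each value is an average over all cell types in the punch. Fewer cells of a type and less RNA per cell cannot be told apart in such tissue. Whether every array comes from its own animal is not in the labels, and the p-values therefore reflect only how much these samples vary.

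Oxidative phosphorylation passes electrons from NADH and succinate along complexes I to IV of the inner mitochondrial membrane to oxygen, with cytochrome c as the mobile carrier between complexes III and IV. Complexes I, III and IV pump protons, and complex V, the ATP synthase, uses the gradient to make ATP. Most subunits are encoded in the nucleus and a small core in mitochondrial DNA. In cortex the system supplies most of the ATP that synaptic transmission and ion pumping consume.

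The promoters of nuclear-encoded subunits are known for motifs of the factors NRF1, GABPA (also called NRF2) and YY1. RefSeq promoter windows on build GRCm38.p6, each 300 bases long with 250 bases before and 50 after a gene's start, matched 66 of the 81 genes and gave 71 windows. The NRF1 motif searched on either strand, GCGCA and GCGC with any 1 base between them, was in 17 of the 71 windows (23.9%), against 4.60% of 32851 mouse windows. The GABPA motif CCGGAAG (either strand) was in 16 of the 71 (22.5%), against 8.86%, and the YY1 motif AAGATGG (either strand) in 10 (14.1%), against 6.34%. Any of the 3 motifs was in 37 member windows (52.1%), against 17.95%, and no matches of different motifs overlapped. The median base composition also differed, with 58.3% G and C in member windows and 52.7% in all windows. A match is only a description of the letters. The windows of 4 genes described below are shown, chosen because they hold the motifs and belong to genes whose probes differed most between the groups in either direction. Capitals mark the motif matches and each window is written 5′ to 3′ on the gene's strand. The Sdhd window (chr9:50603800-50604099, minus strand) has an NRF1 and a GABPA match, and the Atp5e window (chr2:174464052-174464351, minus strand) a GABPA match. The Ndufs4 window (chr13:114388045-114388344, minus strand) has a YY1 match and the Atp5o window (chr16:91931581-91931880, minus strand) an NRF1 match.
Sdhd: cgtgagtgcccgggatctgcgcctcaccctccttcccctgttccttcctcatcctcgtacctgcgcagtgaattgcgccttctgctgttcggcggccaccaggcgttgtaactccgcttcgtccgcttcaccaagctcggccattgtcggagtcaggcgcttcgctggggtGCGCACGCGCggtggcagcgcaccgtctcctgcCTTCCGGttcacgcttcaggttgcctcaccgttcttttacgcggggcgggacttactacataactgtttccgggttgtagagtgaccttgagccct
Atp5e: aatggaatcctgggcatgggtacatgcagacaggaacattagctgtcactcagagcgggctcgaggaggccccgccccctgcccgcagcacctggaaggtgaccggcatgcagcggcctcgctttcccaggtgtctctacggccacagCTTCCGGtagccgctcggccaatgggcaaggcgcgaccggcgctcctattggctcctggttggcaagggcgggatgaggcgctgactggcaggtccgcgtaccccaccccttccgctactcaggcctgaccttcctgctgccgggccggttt
Ndufs4: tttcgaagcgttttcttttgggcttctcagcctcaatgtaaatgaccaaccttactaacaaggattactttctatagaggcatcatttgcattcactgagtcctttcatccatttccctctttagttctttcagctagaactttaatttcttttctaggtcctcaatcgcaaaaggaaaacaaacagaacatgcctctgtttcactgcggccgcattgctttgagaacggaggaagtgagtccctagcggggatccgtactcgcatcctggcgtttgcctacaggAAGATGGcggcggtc
Atp5o: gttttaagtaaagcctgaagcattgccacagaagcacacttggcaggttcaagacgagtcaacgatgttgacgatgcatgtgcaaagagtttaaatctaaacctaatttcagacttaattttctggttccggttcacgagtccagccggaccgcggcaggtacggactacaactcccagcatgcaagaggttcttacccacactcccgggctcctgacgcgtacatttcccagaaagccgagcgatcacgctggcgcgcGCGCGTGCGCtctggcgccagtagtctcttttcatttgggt

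Between 20012 and 21038 probes were detected per array, among them 106 to 111 of the member probes. Arrays IMO 1 and No stress 6 stood apart from the rest. The mean deviation of 5 subcortical forebrain markers from their average over arrays was 1.00 on the log2 scale in IMO 1, against -0.60 to -0.33 in the other IMO arrays. It was 1.14 in No stress 6, against -0.65 to -0.06 in the other No stress arrays. For 8 oligodendrocyte and myelin markers the deviation was 1.01 in IMO 1 and 1.17 in No stress 6, against -0.72 to 0.05 in the other 6 arrays. The gene Prkcd, a marker of thalamus, had log2 signals of 10.1 in IMO 1 and 10.3 in No stress 6, against 7.37 to 7.69 in the other 6 arrays. Cux2, a marker of upper cortical layers, had 7.85 in IMO 1 and 8.04 in No stress 6, against 9.15 to 9.80 in the others. The whole list of 4 upper-layer markers set these arrays apart less clearly, at -0.21 and -0.46, against -0.14 to 0.32 in the others. For 5 deep-layer markers the deviation was -0.34 in IMO 1 but 0.14 in No stress 6, against -0.40 to 0.23 in the others. The other marker lists with the widest differences between groups were blood cells (7 genes), at -0.73 to 0.11 in IMO and -0.09 to 0.78 in No stress arrays, and choroid plexus and ependyma (3 genes), at -0.83 to -0.03 in IMO and -0.25 to 0.84 in No stress arrays. The part of other tissue in the results below was not tested, and the main counts are also given without these 2 arrays. A second deposited table holds different signals under the same sample names. The values below are those of the table that the detection p-values follow more closely.

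The question put to the arrays was whether subunit transcripts differed 6 days after immobilization. No member passed the test across all probes. The lowest adjusted p in limma with Benjamini-Hochberg adjustment over all tested probes was 0.271, and no other probe of the array had an adjusted p under 0.05. At an unadjusted limma p under 0.05, 11 of the 109 member probes were counted (10.1%), with 3 higher and 8 lower in IMO, against 10.6% of all tested probes (5.19% higher and 5.44% lower). The members' share was thus close to that of the array as a whole, with more lower than higher probes among those counted. By gene, each represented by its probe of highest mean signal, 7 of 75 were counted (9.33%), against 10.6% of all genes. Of the 75 genes, 37 had a higher and 38 a lower mean in IMO, against 47.6% higher over all genes, and the median log2 difference was -0.0017, against -0.0088 over all genes tested. The middle 50% of member genes spanned -0.09 to 0.07, against -0.11 to 0.09 over all genes. In 12 of the 109 member probes (11.01%) the groups did not overlap, 3 higher and 9 lower in IMO, against 6.92% of all probes (3.36% higher and 3.56% lower). Without IMO 1 and No stress 6, 15 of the 109 probes were counted (13.8%), with 4 higher and 11 lower, against 11.5% of all probes (5.63% higher and 5.84% lower), and no member passed the adjusted threshold, while 1 of the 20531 probes did. By gene, 8 of 75 were then counted (10.7%), with 42 higher and 33 lower means and a median of 0.024, against -0.0056 over all genes. The share of all genes counted was not computed for these 6 arrays. Over these 6 arrays the groups did not overlap in 25 member probes (22.9%), 11 higher and 14 lower, against 18.3% of all probes. In the second table the member genes were not evenly divided, with 17 higher and 58 lower means. Their median there was -0.077, in a table where the median over all genes was also below 0, at -0.031. How all genes were divided by direction in the second table was not computed.

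**Figure D1:**
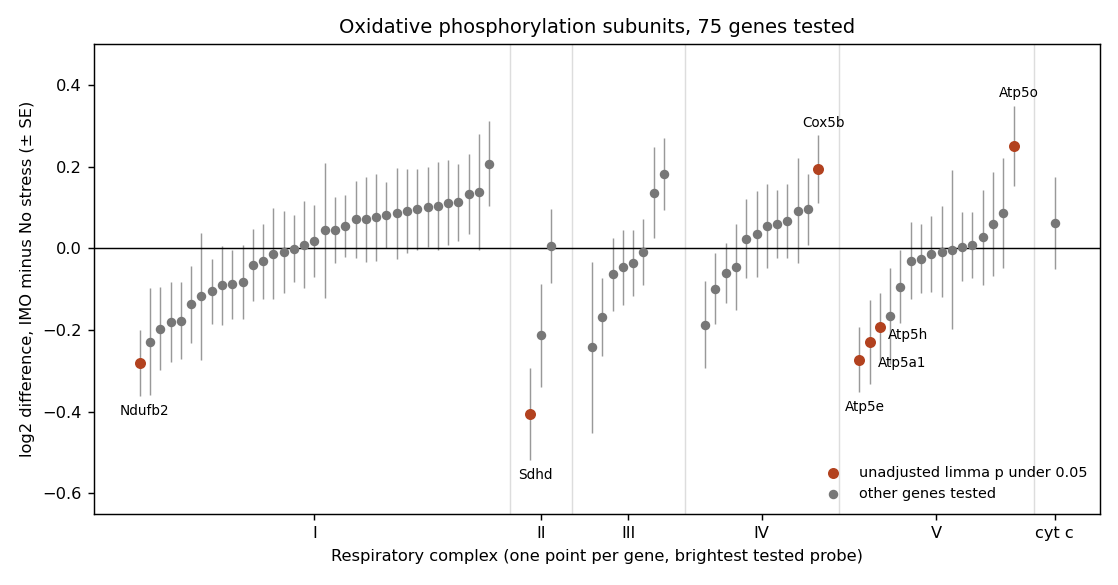
Log2 difference of IMO minus No stress (vertical axis, bars ± standard error) for the 75 member genes tested, 1 point per gene at its probe of highest mean signal, ordered by size within complexes I to V and cytochrome c. The 7 labelled points have an unadjusted limma p under 0.05. Points lie on both sides of 0 in each of complexes I to V, with the highest of complex II only at 0.0049.

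By complex, the median farthest from 0 was that of complex II, which has only 3 tested genes, and it did not keep that place in the second table. Complex II genes had a median log2 difference of -0.21 (range -0.41 to 0.0049). It was -0.11 without No stress 6, -0.32 without No stress 5, -0.13 without both IMO 1 and No stress 6, and -0.02 in the second table, the value closest to 0 of the complexes there. The 35 complex I genes had a median of 0.02 (range -0.28 to 0.21), with 19 higher and 16 lower, and without IMO 1 and No stress 6 a median of 0.05 with 24 higher and 11 lower. The 8 complex III genes had a median of -0.04 (range -0.24 to 0.18), with 2 higher and 6 lower. The 12 complex IV genes had a median of 0.05 (range -0.19 to 0.19), with 8 higher and 4 lower, and the 16 complex V genes of -0.01 (range -0.27 to 0.25), with 6 higher and 10 lower. Cytochrome c, with Cycs as its only gene, differed by 0.06. Without IMO 1 and No stress 6 the division was 2 higher and 6 lower in complex III, 7 and 5 in complex IV, and 7 and 9 in complex V. In the second table the medians were -0.08 in complex I, -0.06 in III, -0.07 in IV, -0.14 in V and -0.15 for Cycs.

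Complex I oxidises NADH and is the largest of the complexes. Its member with the smallest p in any probe was Ndufs4, an accessory subunit of the matrix arm whose loss in mice causes a Leigh-like encephalopathy. Probe ILMN_2663694 had log2 signals of 9.99, 9.86, 9.80 and 9.90 in IMO arrays, against 10.20, 10.25, 10.31 and 10.16 in No stress arrays. All 4 IMO arrays were below all 4 No stress arrays. The log2 difference was -0.34 (SE 0.0808), a change of -21.2%, with an adjusted limma p of 0.271. The same probe differed by 0.10 in the second table. The other 3 Ndufs4 probes did not share it, with differences of 0.04, -0.05 and -0.04 and overlapping groups. The value of 0.04 is that of the probe of highest signal, which stands for the gene in the counts above. Ndufb2, an accessory subunit of the membrane arm, had signals of 8.83, 8.83, 8.73 and 8.74 in IMO arrays and 9.12, 9.09, 9.11 and 8.94 in No stress arrays. Its groups did not overlap, and the log2 difference was -0.28 (SE 0.0810, adjusted limma p 0.334). Its difference in the second table was 0.07. A second probe of Ndufb2 was detected on none of the arrays.

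Ndufb10, another accessory subunit of the membrane arm, was lower at both of its tested probes. Probe ILMN_2900216 had signals of 9.41, 9.35, 9.41 and 9.11 in IMO arrays, against 9.65, 9.69, 9.55 and 9.46 in No stress arrays, without overlap. Its log2 difference was -0.27 (SE 0.0974, adjusted limma p 0.390), while the probe that represents the gene differed by -0.18 (SE 0.0975) with overlapping groups. The second table had these probes at 0.10 and 0.08. In the opposite direction, Ndufa6, an accessory subunit of the LYR motif family, had the second smallest p among complex I genes at their representing probe. Its mean was 11.69 ± 0.13 in IMO and 11.48 ± 0.16 in No stress arrays (SD, n = 4 each), with overlapping groups, a log2 difference of 0.21 and an adjusted limma p of 0.521, against -0.10 in the second table. Ndufb9, a further accessory subunit named after its values were seen, had groups that did not overlap although its unadjusted limma p was 0.0799. Its signals were 10.10, 10.05, 9.91 and 9.67 in IMO arrays, against 10.16, 10.11, 10.12 and 10.12 in No stress arrays. The No stress values lay within a narrow band and the IMO values spread below it. The Ndufs1 probe, for the largest subunit of complex I, passed detection on 0 arrays and stayed out of the test.

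Complex II, succinate dehydrogenase, links the respiratory chain to the tricarboxylic acid cycle and pumps no protons. Its members comprise the catalytic pair Sdha and Sdhb and the membrane anchors Sdhc and Sdhd. Sdhd had the largest difference of any member. Its probe gave log2 signals of 8.29, 8.37, 8.11 and 8.03 in IMO arrays, against 8.40, 8.81, 8.65 and 8.56 in No stress arrays. The groups did not overlap, but the highest IMO value lay just under the lowest No stress value. The log2 difference was -0.41 (SE 0.113), a change of -24.5%, with an adjusted limma p of 0.333 and an exact two-sided permutation p of 0.0286, the smallest that 4 against 4 arrays can give. Every probe without overlap has this exact p, so it adds nothing to the non-overlap. Leaving out any 1 array gave differences from -0.48 to -0.34, and without IMO 1 and No stress 6 the difference was -0.37. In the second table the direction was the opposite, with a difference of 0.22 (SE 0.150). Sdhc, the other anchor, averaged 10.52 ± 0.09 in IMO and 10.73 ± 0.26 in No stress arrays (SD, n = 4 each), with overlapping groups. Its log2 difference of -0.21 (SE 0.126) became -0.32 without No stress 5 and -0.13 without IMO 1 and No stress 6. A second Sdhc probe differed by -0.10 with overlapping groups. Sdhb, the iron-sulfur subunit, differed by 0.0049 (SE 0.0903) at its representing probe and by -0.09 and 0.03 at the others. The Sdha probe, for the flavoprotein subunit, was detected on 0 arrays.

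**Figure D2:**
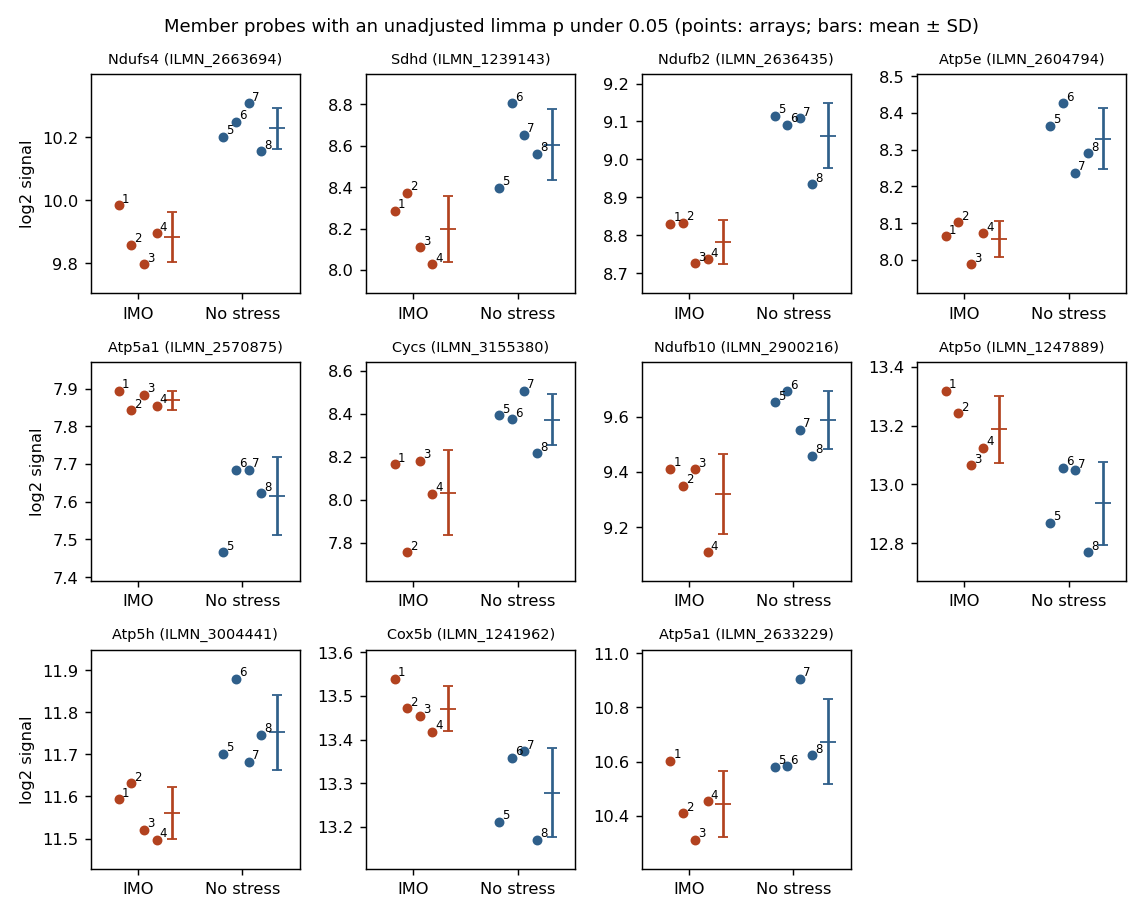
Log2 signal on each array for the member probes with an unadjusted limma p under 0.05, with IMO arrays left of No stress arrays in each panel, array numbers beside the points and bars at the mean ± SD of each group. In 10 of the 11 probes the groups do not overlap, and the exception is the Atp5a1 probe with lower signals in IMO.

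Complex III passes electrons from ubiquinol to cytochrome c. None of its 9 tested probes had an unadjusted limma p under 0.05. The 2 genes of smallest p were Uqcrc2, a core subunit, and Uqcrfs1, the Rieske iron-sulfur protein. Uqcrc2 averaged 12.43 ± 0.13 in IMO and 12.25 ± 0.04 in No stress arrays (SD, n = 4 each), a log2 difference of 0.18 (SE 0.0885, adjusted limma p 0.504). The IMO values of 12.54, 12.45, 12.50 and 12.24 overlapped the No stress values of 12.30, 12.27, 12.23 and 12.21 through array IMO 4, and without that array the difference was 0.25. The second table gave -0.14. Uqcrfs1 averaged 6.22 ± 0.11 in IMO and 6.39 ± 0.13 in No stress arrays, with overlapping groups, and its difference was -0.17 (SE 0.0963). Its signals lay near 6.10, the log2 signal at which detection p reaches the threshold, where differences are compressed. The lowest value in the complex was that of Cyc1, the cytochrome c1 subunit, at -0.24 with an SE of 0.210, named here after its value was seen. Without IMO 4 it was -0.06, so that its place rests on that array.

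In complex IV, cytochrome c oxidase, the gene with the smallest p was Cox5b, a subunit on the matrix side. Probe ILMN_1241962 had log2 signals of 13.54, 13.47, 13.46 and 13.42 in IMO arrays, against 13.21, 13.36, 13.37 and 13.17 in No stress arrays. All IMO arrays were above all No stress arrays, with a log2 difference of 0.19 (SE 0.0830, adjusted limma p 0.451), against -0.17 in the second table. The other tested Cox5b probe went the opposite way, at -0.22 (SE 0.150) with overlapping groups. Cox7b, a small subunit needed for assembly of the enzyme, averaged 8.33 ± 0.13 in IMO and 8.52 ± 0.16 in No stress arrays (SD, n = 4 each), a difference of -0.19 (SE 0.106) with overlapping groups. Cox7a2, the widely expressed form of subunit VIIa, was named after its values were seen because its groups did not overlap. It averaged 9.34 ± 0.03 in IMO and 9.41 ± 0.04 in No stress arrays, a small difference of -0.06 with an unadjusted limma p of 0.421.

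Complex IV has isoforms that are restricted to certain tissues. Of these, Cox4i2 (lung), Cox7b2 and Cox8c (testis) and Cox8b (heart and skeletal muscle) were detected on at most 2 of the 8 arrays and were not tested. The heart and muscle forms Cox6a2 and Cox7a1 and the testis form Cox6b2 were tested. Cox6a2, also known from fast-spiking interneurons, was detected on all arrays and differed by 0.04 (SE 0.105). Cox7a1 differed by 0.02 (SE 0.0965), also with detection on all arrays. Cox6b2 was detected on 3 IMO and 3 No stress arrays and differed by 0.09 (SE 0.128). In all 3 the groups overlapped, and the sign of each turned when certain single arrays were left out.

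Complex V, the ATP synthase, had 5 counted probes among 25 tested, against 10.6% of all probes on the array. Complex I had 3 among 51. Without IMO 1 and No stress 6 complex V had 4 of the 25, against 11.5% of all probes. Complex I then had 9 of its 51, most of the 15 member probes counted in that setting, and complex IV went from 1 to 0. The counts by complex thus depended on these arrays. None of the 5 complex V probes was counted in the second table. Atp5e, the epsilon subunit of the central stalk, had log2 signals of 8.07, 8.10, 7.99 and 8.07 in IMO arrays, against 8.37, 8.43, 8.24 and 8.29 in No stress arrays. The groups did not overlap, and the log2 difference was -0.27 (SE 0.0798), a change of -17.2%, with an adjusted limma p of 0.334. Atp5h, subunit d of the peripheral stalk, had signals of 11.59, 11.63, 11.52 and 11.50 in IMO arrays and 11.70, 11.88, 11.68 and 11.75 in No stress arrays. Its groups did not overlap either, with a difference of -0.19 (SE 0.0820, adjusted limma p 0.448), or -0.16 without IMO 1 and No stress 6. Atp5e differed by 0.09 and Atp5h by 0.08 in the second table. Atp5o, the oligomycin sensitivity-conferring protein of the same stalk, was higher. Its probe ILMN_1247889 had signals of 13.318, 13.242, 13.065 and 13.125 in IMO arrays, against 12.870, 13.056, 13.049 and 12.770 in No stress arrays. The lowest IMO value was just above the highest No stress value, and the log2 difference was 0.25 (SE 0.0984), a change of 19.0%, with an adjusted limma p of 0.418. It differed by -0.08 in the second table. A second Atp5o probe differed by 0.10 (SE 0.153) with overlapping groups.

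Atp5a1, the alpha subunit of the catalytic head, had counted probes in both directions. Probe ILMN_2570875 had log2 signals of 7.89, 7.84, 7.88 and 7.85 in IMO arrays, against 7.47, 7.69, 7.68 and 7.62 in No stress arrays, with no overlap and a difference of 0.25 (SE 0.0815, adjusted limma p 0.351). Probe ILMN_2633229, which represents the gene, had 10.60, 10.41, 10.31 and 10.45 in IMO arrays, against 10.58, 10.58, 10.91 and 10.62 in No stress arrays. Its groups overlapped through IMO 1, and its difference was -0.23 (SE 0.103, adjusted limma p 0.467). Without No stress 7 it was -0.15. The probes of Atp5a1 therefore gave no single direction for the gene.

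Cytochrome c, encoded by Cycs, likewise had probes on both sides of 0. Probe ILMN_3155380 had log2 signals of 8.17, 7.76, 8.18 and 8.03 in IMO arrays, against 8.39, 8.38, 8.51 and 8.22 in No stress arrays. The groups did not overlap, with a log2 difference of -0.34 (SE 0.112, adjusted limma p 0.353). The probe that represents the gene differed by 0.06 and the third by 0.08, both with overlapping groups.

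**Figure D3:**
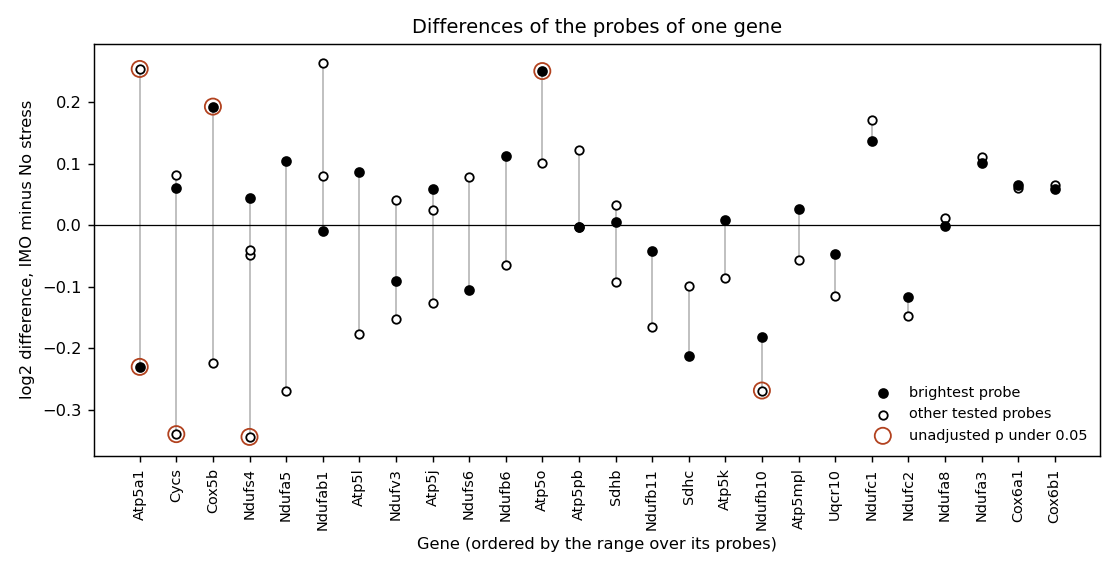
Log2 difference of IMO minus No stress at every tested probe of the 26 member genes that have several, 1 column per gene, with filled points for the probe of highest mean signal and rings for an unadjusted limma p under 0.05. Atp5a1, Cycs, Cox5b and Ndufs4 have the widest spread between probes, and 10 of the 26 genes have all probes on 1 side of 0.

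The probes of 1 gene were compared after the values were seen. Of the 26 member genes with several tested probes, 10 had the same sign at all of them (38.5%), against 2056 of 4271 genes on the array (48.1%). The median spread between a gene's probes was 0.125 on the log2 scale in members and 0.156 in all such genes. The spread was largest in Atp5a1 (0.484), Cycs (0.422), Cox5b (0.417) and Ndufs4 (0.388). All 4 have a counted probe. The probes of Ndufb10 and Atp5o, also counted, had 1 sign each. Ndufa3, Cox6a1 and Cox6b1 were the closest, with probes that differed by at most 0.0087.

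**Figure D4:**
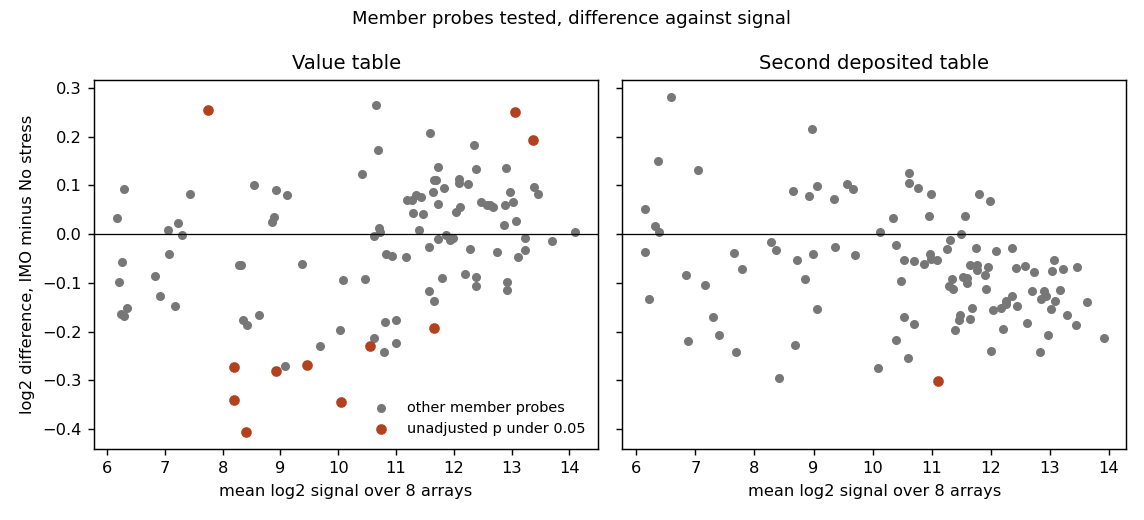
Log2 difference of IMO minus No stress against mean log2 signal over 8 arrays for the 109 member probes tested, in the value table (left) and in the second deposited table (right). In the left panel 13 of the 18 probes with signals of 8 to 10 lie below 0 and 22 of the 33 from 12 upwards lie above it, and in the right panel 85 of the 109 probes lie below 0.

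The direction of the member probes differed by signal class, a split made after the values were seen. In the largest class, with a mean log2 signal of 10 to 12, 19 of 42 member probes were higher and 23 lower. Their median difference was -0.0059, and 7.14% were counted as lower, against 5.56% of all probes of the class. Of the 16 member probes below 8, 6 were higher and 10 lower, with a median of -0.05 and 0 counted as lower. Of the 18 member probes with a mean log2 signal of 8 to 10, 13 were lower in IMO (72.2%), with a median difference of -0.17, against 49.6% lower and a median of 0.0015 among all 6145 probes of that class. Of the 18, 5 were counted as lower (27.8%), against 6.04% of all probes of the class. Of the 33 member probes from 12 upwards, 22 were higher (66.7%), with a median of 0.06, against 54.5% higher and a median of 0.01 over 664 probes. Without IMO 1 and No stress 6, 12 of the 18 were lower and 24 of the 33 higher, and the medians of these classes were -0.15 and 0.06. In the second table the same probes had medians of -0.02 and -0.13. There, of the 109 member probes, 1 had an unadjusted limma p under 0.05 (0.917%), with 0 higher and 1 lower, against 2.76% of all probes (0.809% higher and 1.95% lower), and 24 were higher and 85 lower in IMO. Its median over member genes was -0.08, against -0.03 over all genes. How all probes were divided by direction there was not computed.

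**Figure D5:**
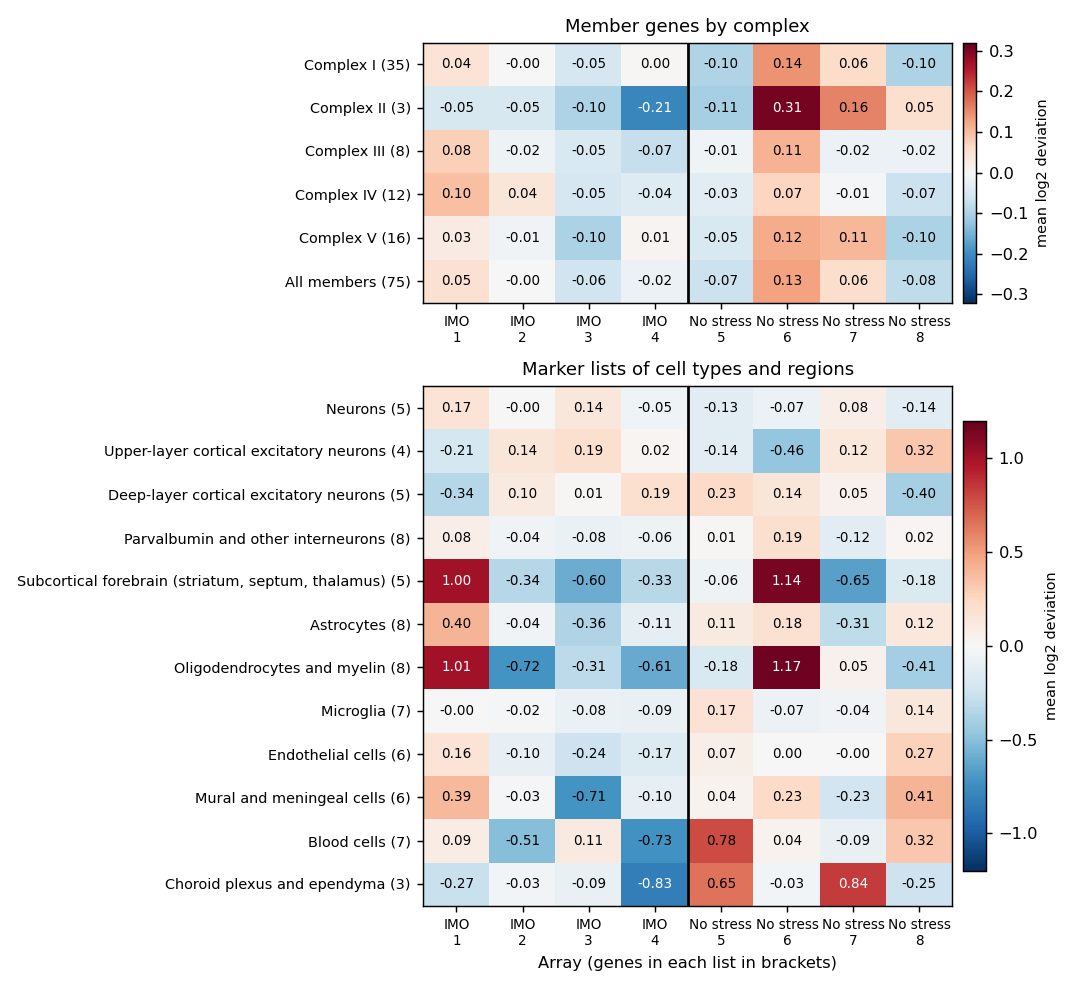
Heat maps of the mean log2 deviation of each list's genes from their average over the 8 arrays, with complexes and marker lists as rows (genes in brackets) and arrays as columns, IMO left of No stress. The mean of all 75 member genes runs from -0.06 to 0.05 in IMO arrays, inside the range of -0.08 to 0.13 in No stress arrays.

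The mean over all members spanned 0.114 on the log2 scale among IMO arrays and 0.211 among No stress arrays. The mean deviation of the 75 genes from their own average was 0.05, -0.0005, -0.06 and -0.02 in IMO arrays, against -0.07, 0.13, 0.06 and -0.08 in No stress arrays. The highest value was that of No stress 6, which carries the subcortical and myelin signal, and IMO 1, which carries it too, was the highest IMO array. No stress 7, at 0.055, was above IMO 1, at 0.050, and had the lowest mean of the subcortical markers (-0.65). Its mean of the myelin markers was 0.05. That lay below No stress 6 (1.17) and IMO 1 (1.01) and above the other arrays (-0.72 to -0.18). The part of other tissue in the member means was not tested. The group means differed by -0.02, within the SD of 0.05 among IMO arrays and of 0.10 among No stress arrays.

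Other genes of energy metabolism were drawn from 9 lists, each gene at its probe of highest mean signal. None of their members had an adjusted limma p under 0.05, and the counts below use the unadjusted p. Over all 11018 genes tested, 10.6% were counted, 47.6% had a higher mean in IMO and the median log2 difference was -0.0088. In each list the 2 genes of smallest p are named. Of the subunits encoded in mitochondrial DNA, 8 genes were tested, with 3 higher and 5 lower and a median log2 difference of -0.06. Counted as lower were ND4L, of complex I, at -0.96 (SE 0.337) and ATP6, the proton channel subunit of complex V, at -0.21 (SE 0.0842). ND4L had log2 signals of 11.07, 10.00, 9.79 and 9.25 in IMO arrays, against 10.51, 11.15, 11.49 and 10.77 in No stress arrays. The groups overlapped through IMO 1, and both genes had positive differences in the second table, of 0.42 and 0.15.

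The 14 complex I assembly factors had a median of 0.0015, with Timmdc1 lower (-0.26, SE 0.0772) and Tmem70, which also serves ATP synthase assembly, higher (0.24, SE 0.106). The 30 assembly factors of complexes II to V had a median of 0.02, with Higd1a (-0.24, SE 0.104) and Sdhaf1, an assembly factor of succinate dehydrogenase (-0.18, SE 0.0774), counted as lower. Of 20 genes of the tricarboxylic acid cycle and pyruvate dehydrogenase, 14 were lower and 6 higher, with a median of -0.06. The 2 counted genes were both higher, namely Pdha1, a subunit of pyruvate dehydrogenase (0.24, SE 0.0760), and Dlst of the 2-oxoglutarate dehydrogenase complex (0.29, SE 0.0968), whose other probes differed by 0.08, 0.0065 and 0.0039. The 16 glycolysis genes had a median of 0.04, and Tpi1, triosephosphate isomerase, was the only counted gene (-0.19, SE 0.0833), with other probes at 0.31 and -0.07. Ldha, lactate dehydrogenase A, differed by 0.17 with an unadjusted limma p of 0.0615.

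Among 17 regulators of mitochondrial biogenesis, with a median of -0.04, Gabpb1, the partner of GABPA, was counted as higher (0.33, SE 0.0916) and Tfb1m, a mitochondrial rRNA methyltransferase, as lower (-0.29, SE 0.121). Gabpb1 had log2 signals of 7.33, 7.25, 7.26 and 7.08 in IMO arrays, against 7.03, 6.78, 6.85 and 6.94 in No stress arrays, without overlap. Its other probes differed by 0.22 and -0.07. Of the 12 carrier and ATP export genes (median -0.03), Slc25a12, the aspartate-glutamate carrier of neurons, was higher (0.29, SE 0.0859), and Vdac2, an outer membrane channel, differed by -0.13 without being counted. The 19 import and quality control genes had a median of -0.03. Counted as lower were Pmpcb, a subunit of the mitochondrial processing peptidase (-0.46, SE 0.0929), and Tomm70a, an import receptor (-0.29, SE 0.113). Pmpcb had signals of 8.00, 7.72, 7.94 and 7.86 in IMO arrays, against 8.19, 8.35, 8.42 and 8.39 in No stress arrays, without overlap and with an adjusted limma p of 0.236. Of the 8 antioxidant genes (median -0.03), Gpx4, a glutathione peroxidase that acts on lipid peroxides, was lower (-0.23, SE 0.0854) with other probes at 0.07 and -0.16, and Glrx5, a glutaredoxin of iron-sulfur cluster assembly, differed by -0.14 without being counted.

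Of the 18 genes named from these lists, 11 had the opposite sign in the second table, and 0 of the 18 had an unadjusted limma p under 0.05. The 11 were ND4L and ATP6, as given above, Tmem70 (-0.17), Sdhaf1 (0.0077), Pdha1 (-0.12), Tfb1m (0.02), Slc25a12 (-0.14), Pmpcb (0.04), Tomm70a (0.05), Gpx4 (0.08) and Glrx5 (0.14). Without IMO 1 and No stress 6, 8 of the 15 counted genes were still counted. The others were Higd1a, Sdhaf1, Pdha1, Dlst, Tpi1, Tfb1m and Gpx4, each with the same sign as before.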

How the data were processed

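RNA from bilateral medial prefrontal cortex was labelled with biotin for Illumina arrays, per the labels' protocols. Probe intensities, linear and not logged, were deposited by the authors in 2 tables, the second of which also gives detection p-values. No source used here gives the steps between scanner and table. Sorted columns are nearly equal in both tables, as after quantile normalization, even in the second, whose name says non-normalized. The deposited detection p-values correlated across probes with the value table at a Spearman rho of -0.987 to -0.978 per array, against -0.932 to -0.895 with the second table. The value table was therefore used and not normalized again. Detection p reached 0.05 at a log2 signal of about 6.10.

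The log2 of each deposited intensity was used with no pseudocount (minimum 4.75). A linear model with lmFit and eBayes of limma 3.58.1 (R 4.3.3, no trend) was fitted to the 20531 probes detected at p under 0.05 on 4 or more arrays, and p-values were adjusted over all of them by Benjamini-Hochberg. The number of arrays limits the precision, with a median standard error of 0.108. For single named genes an exact permutation test (two-sided, 70 splits) was added. A gene was represented by its tested probe of highest mean signal. In simulated data over 20531 probes, of 200 changed probes 0 were recovered at a log2 shift of 0.3, 66 at 0.5 and 195 at 1.0. The noise was normal, independent for each probe and array, with the variance of the fit. It held no differences shared between probes, such as those of the arrays that stood apart, so recovery on the real arrays may differ.

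Members and lists were chosen with earlier results of these data known. The genes named were those with a tested probe of unadjusted p under 0.05, the 2 genes of smallest p in each complex and other list, and the tissue-restricted isoforms. Names come from the platform annotation, and all 81 genes matched RefSeq by Entrez ID with 0 symbols changed. The rule for names also took in Ndufs5-ps, a pseudogene symbol, and Ndufa4, today counted with complex IV, both kept with complex I. No array column was left unmapped (0). Alternatives covered the second table, background correction, normalization, probe filters, the variance model, array weights, a gene's mean over probes and leaving out arrays.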

Additional observations from a re-analysis of the deposited data

Results flagged for a closer look

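The named member genes at their representing probe, and the mean of each complex, were checked within each group of 4 arrays for 1 array far from the other 3, by Dixon's test. Over 46 groups of values, 4 were picked out, and chance picks out about 1 in 20. Atp5a1 at its representing probe had a log2 signal of 10.907 in No stress 7, against 10.58 to 10.624 in the other No stress arrays, and the log2 difference of -0.23 was -0.15 without it. Cycs at its representing probe had 11.894 in IMO 1, against 11.708 to 11.737 in the other IMO arrays. Ndufb2 had 8.935 in No stress 8, against 9.092 to 9.115 in the other No stress arrays, and was still above every IMO array. The mean deviation of the 8 complex III genes was 0.11 in No stress 6, against -0.018 to -0.013 in the other No stress arrays. No stress 6 and IMO 1 are the arrays with raised subcortical and myelin markers, whose part in these values was not tested.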

How the results depend on the processing

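No member probe had an adjusted limma p under 0.05 under any alternative run. The 3 higher and 8 lower counted probes became 0 and 1 in the second table, 6 higher with array weights, 1 to 6 higher and 5 to 11 lower when single arrays were left out. The low of 1 came without IMO 1, IMO 2, No stress 5 or No stress 8, the highest counts without No stress 6 (6) and No stress 7 (5), and the 5 lower without IMO 4. The share of all probes counted moved as well. It was 2.76% in the second table, against 0.917% of members, and 15.1% with array weights, against 12.8%. With single arrays left out it ran from 7.15% to 11.7%, against 7.34% to 11.9% of members. In the second table the medians were -0.0841 for complex I, -0.0230 for II, -0.0750 for IV, -0.139 for V and -0.153 for cytochrome c. Of the other lists, complex I assembly was at -0.132 there, complex II to V assembly at -0.0786, mitochondrially encoded subunits at 0.112, glycolysis at -0.0398 and import at -0.00077. Without IMO 1 and No stress 6 glycolysis was at -0.0196 and import at 0.0029. The second table turned the sign of 13 named member genes (those of the other lists stand in the report), giving Atp5e 0.0882, Atp5h 0.0822, Atp5o -0.0765, Cox5b -0.166, Cox7a1 -0.104, Cycs -0.153, Ndufa6 -0.100, Ndufb10 0.0817, Ndufb2 0.0727, Ndufs4 -0.301, Sdhd 0.215, Uqcrc2 -0.143 and Uqcrfs1 0.0038. The Ndufs4 value has an unadjusted p of 0.0156. The mean of a gene's probes turned Atp5a1 (0.0120), Cox5b (-0.0156), Cycs (-0.0655) and Ndufs4 (-0.0971). Cox7a1 turned to -0.0064 with array weights and -0.0132 without IMO 1 and No stress 6. Leaving out single arrays turned Cox6a2 (-0.0084 to 0.11), Cox6b2 (-0.0126 to 0.172), Cox7a1 (-0.0379 to 0.0945), Cycs (-0.0070 to 0.13) and Ndufs4 (-0.12 to 0.15). The cause of these changes was not tested. Among all values of named member genes, 279 kept sign and side of the unadjusted threshold, 25 turned sign, 25 lost the threshold and 11 gained it. The variance model and the probe filters leave a probe's log2 difference unchanged and could not turn a sign. The same holds for the mean over probes where a gene has 1 tested probe. The 279 therefore do not measure stability. No paired analysis was possible because the replicate numbers do not repeat across the groups. Signals near the detection threshold carry compressed differences.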

Other observations

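The spread between arrays differed between the groups in the members, a comparison made after the values were seen and given as a description. In 55 of the 75 member genes (73.3%) the SD among IMO arrays was smaller than that among No stress arrays, against 55.7% of all genes tested. The median SD of a member gene was 0.0973 in IMO and 0.141 in No stress arrays, against 0.132 and 0.147 over all genes. The genes share arrays, so the count does not measure independent evidence.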
